A study of Mus musculus with 8 samples.

Results

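The genes described here are 7 transcription factor genes of the Pitx, Otx and Tfap2 families, some of them known from the eye: Pitx1 and Pitx3, Otx1 and Otx2, and Tfap2a, Tfap2b and Tfap2c. They were chosen by name, and all 7 were found among 21883 protein-coding genes of the gene table (assembly GRCm38.p6). A loop was counted at a gene when an anchor overlapped the gene body widened by 5 kb on each side, a TAD (a block of chromatin that contacts itself) when it touched that window, and a CTCF peak when it lay in it. Counted in this way, these genes had 36 of 8459 loops in mouse embryonic stem (ES) cells, 10 of 8005 in lens epithelium and 9 of 7682 in lens fiber cells.

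Hi-C, which counts contacts between distant pieces of DNA, was carried out on v6.5 mouse ES cells of WT genotype and on both parts of the CD-1 mouse lens at postnatal day 0.5. The ES cells were cultured without feeders and with LIF. Each lens replicate pooled 30 microdissected epithelia or fiber masses, each ES replicate held about 2000000 cells, and all were crosslinked in 2.0% formaldehyde. The ES cells are a cultured line and the lens samples are dissected tissue, so that culture, strain and stage cannot be told apart from cell type. CTCF, the zinc finger protein that binds many loop anchors, was mapped by ChIP-seq in lens epithelium and fiber cells and not in ES cells. These came from 200 CD-1 lenses, also at postnatal day 0.5. The lists hold no expression values, so the labelled cell types could not be checked against marker genes. Because 2 replicates of each cell type were merged into 1 list of loops and 1 of TADs, there was no replicate error for any count and no test between cell types. A loop missing from a list is one that was not called at that depth, which is no measurement of absent contact.

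Pitx and Otx proteins carry a homeodomain of the bicoid type, and Tfap2 proteins (AP-2) bind DNA as dimers through a helix-span-helix domain. Pitx3 is needed for the lens, and mice that lack its function in the eye have small eyes without a normal lens. Otx2 acts in the forebrain, the retinal pigment epithelium and photoreceptors, and Otx1 in the brain and ciliary body. Tfap2a acts in the surface ectoderm that forms the lens and in neural crest, Tfap2b in neural crest, kidney and the anterior eye, Tfap2c in trophoblast and germ cells, and Pitx1 in the hindlimb and pituitary.

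In ES cells Pitx1 and Tfap2a were among the genes with the most loops in the genome, and a 15.1 Mb loop joined them to each other. Pitx1 had 11 loops, a number that 12 protein-coding genes (0.0548%) reached or passed. Tfap2a had 10 loops, reached or passed by 18 genes (0.0823%). Tfap2b had 6 and Otx1 had 5, while Otx2 and Tfap2c had 2 each and Pitx3 had 1. In lens epithelium the counts ran from 0 at Otx2 to 3 at Tfap2b, with 1 at Pitx1 and 2 at Tfap2a. Lens fiber cells likewise had 0 at Otx2 and 3 at Tfap2b, with 1 each at Pitx1 and Tfap2a. Pitx3 had 1 loop in epithelium and 2 in fiber cells, Otx1 had 2 and 1, and Tfap2c had 1 and 1.

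**Figure D1:**
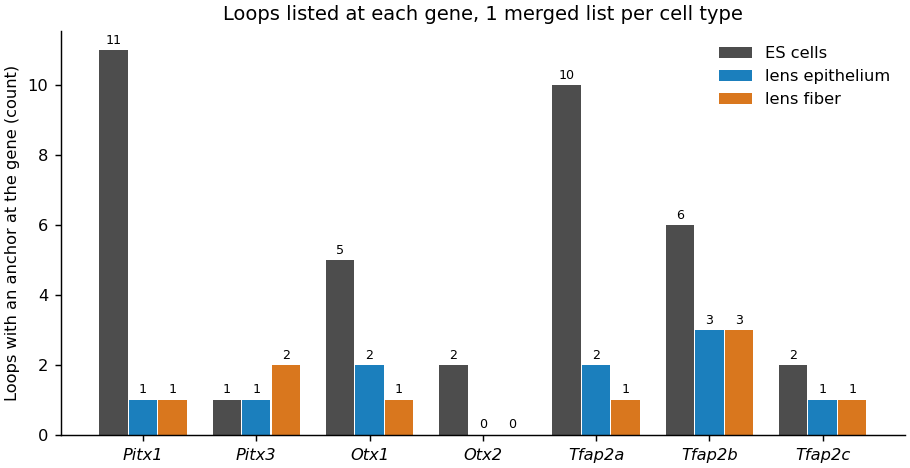
Number of loops with an anchor at each gene (vertical axis, count) for the 7 genes (horizontal axis) in each merged list, with no error bars because each list is 1 value. Pitx1 (11) and Tfap2a (10) stand above the other genes in ES cells, and no gene has over 3 loops in either lens list.

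At least 1 loop was listed at 7 of 7 genes in ES cells, 6 of 7 in lens epithelium and 6 of 7 in lens fiber cells. Over all protein-coding genes the share was 36.9% in ES cells, 35.8% in epithelium and 34.1% in fiber cells. The genes are not long, with a median body of 12945 bp against 17170 bp over all genes. Otx2 was the gene without a lens loop. The nearest anchor midpoint lay 119 kb from it in epithelium and 162 kb in fiber cells.

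Most ES cell loops at these genes were very long. Of the 36, 20 joined sites over 3 Mb apart, which is 55.6% (95% Wilson interval 39.6% to 70.5%, counting error only), and the share in the whole ES list was 3.72%. The interval takes loops as independent, although 6 of the 20 were at Pitx1 and 8 at Tfap2a, with the loop joining them counted at both. It is therefore too narrow for a statement about genes. With anchors of 5 and 10 kb alone, the narrower widths, the share over 3 Mb was 5 of 17 (29.4%), against 0.938% of the list. None of the 10 epithelial loops and none of the 9 fiber loops passed 3 Mb, with upper Wilson limits of 27.8% and 29.9%. In the whole lens lists such loops were rare as well, at 1.05% and 1.07%. By gene, 5 of 7 members had a loop over 3 Mb in ES cells, where 1.86% of all genes did, and 0 of 7 in either lens list, where 0.338% of genes in epithelium and 0.306% in fiber cells did. Pitx3 and Tfap2c were the 2 members without one in ES cells. The limit fell between a pair of Otx1 loops, at 2.99 Mb and 3.13 Mb. Median loop size at the genes was 5585 kb in ES cells, 375.0 kb in epithelium and 200.0 kb in fiber cells, against medians of 220, 250 and 270 kb in the whole lists.

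**Figure D2:**
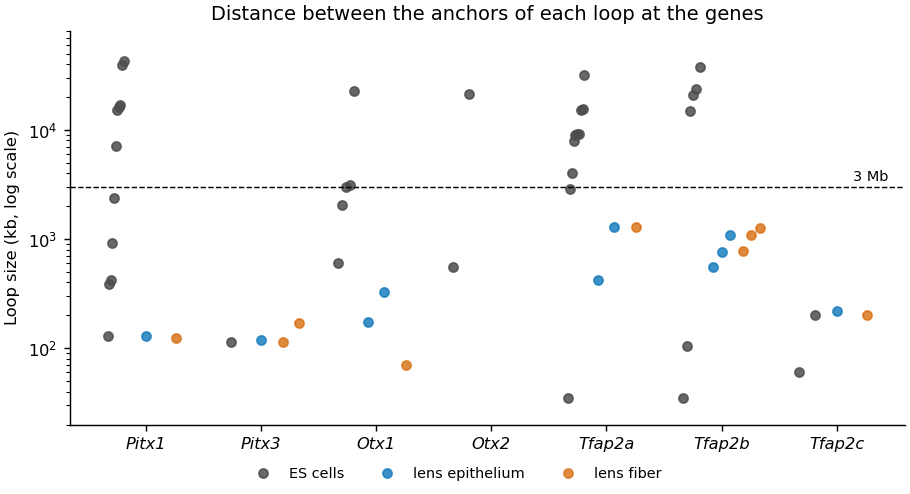
Distance between the anchor midpoints of each loop (vertical axis, kb on a log scale) by gene and cell type, 1 point per loop, with a dashed line at 3 Mb. The points above the line are all from ES cells, at Pitx1, Otx1, Otx2, Tfap2a and Tfap2b, and the longest lens loop measures 1300.0 kb.

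The Pitx1 gene lies on chromosome 13 from 55825044 to 55836190. Each of its 6 ES cell loops over 3 Mb ended at a protein-coding gene. The longest reached Foxd1, a forkhead gene of kidney stroma and retina, over 42.5 Mb, with 39 observed contacts against 2.96 expected from the ring of map around the loop, a ratio of 13.2 (95% Poisson interval 9.38 to 18.0). The others reached Otp, a homeobox gene of hypothalamic neurons, over 39.1 Mb, the Iroquois homeobox genes Irx2 and Irx1 over 16.8 and 16.1 Mb, Tfap2a over 15.1 Mb, and the homeobox gene Barx1 over 7.17 Mb. These rested on between 14 and 19 contacts. The anchor of the Otp loop ended just outside the Pitx1 body, so that this loop was counted only because the window was widened.

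Pitx1 had 5 shorter loops in ES cells. A 2.36 Mb loop to Msx2, a homeobox gene of skull and tooth, had 26 contacts against 2.16 expected (ratio 12.0, interval 7.87 to 17.7). A 0.420 Mb loop to Neurog1, a proneural gene, had 74 against 7.51 (ratio 9.86, interval 7.74 to 12.4). The gene also had loops of 0.925 Mb to the channel gene Trpc7, of 0.390 Mb to a site 20.5 kb from Neurog1, and of 130 kb to a site whose nearest protein-coding gene, the histone variant gene Macroh2a1, was 104 kb away.

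The 130 kb loop was the only Pitx1 loop of the lens. ES cells and epithelium listed it with identical anchors, from 55830001 to 55840000 and from 55960001 to 55970000, and fiber cells listed it with 25 kb anchors over the same places. It had 89 observed contacts against 43.1 expected in ES cells (ratio 2.07, interval 1.66 to 2.54), 58 against 19.5 in epithelium (2.97, 2.25 to 3.84) and 268 against 132 in fiber cells (2.03, 1.80 to 2.29). The fiber value comes from wider anchors and is not on the same footing as the others. The 3 intervals overlapped.

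Tfap2a lies on the same chromosome from 40713802 to 40738238, and 8 of its 10 ES cell loops passed 3 Mb. The highest ratios belonged to a pair of loops that ran from either side of the gene to Foxf2, a forkhead gene, over 9.08 and 9.11 Mb, with 16 contacts against 0.548 (ratio 29.2, interval 16.7 to 47.4) and 17 against 0.719 (23.6, 13.8 to 37.9). The near anchor of the 9.08 Mb loop ended at 40710000, below the gene body, so that this loop was counted only because the window was widened. The near anchors of 9 of the 10 ES loops overlapped the body itself. The loop with most contacts among the 8 ended over Foxc1, a forkhead gene of the anterior eye, and its neighbour Gmds, with 29 against 2.11 expected. Barx1 was reached over 7.95 Mb (27 contacts), Nrn1, a neuritin gene, over 4.0 Mb (23), Neurog1 over 15.5 Mb (15) and Irx2 over 31.9 Mb (16). The shorter ES loops ran 2.90 Mb to Rreb1, a zinc finger gene, and 35 kb across the gene itself.

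Neurog1, Irx2 and Barx1 were therefore far ends of both Pitx1 and Tfap2a loops. They were 3 of 25 protein-coding genes at the far anchors of the ES cell loops, and no other was joined to 2 of the members. Every listed loop lies within a chromosome, and among the members only Pitx1 and Tfap2a share one. Partners on other chromosomes could therefore not be joined to 2 members. Of these 25 genes, 16 lay at loops over 3 Mb. The ES list also joined those 16 genes to one another in 11 loops, 8 of them over 3 Mb. Barx1, for example, was joined to Foxd1 over 49.7 Mb (16 contacts against 1.13 expected), to Irx2 over 24.0 Mb (22 against 1.05), to Nrn1 over 11.9 Mb (18 against 0.816) and to Neurog1 over 7.60 Mb (23 against 3.65). Since these genes were found as the ends of long ES loops, the counts describe the ES list and are no comparison with the lens. The largest of the 4 FDR values of the Tfap2a to Neurog1 loop was 0.018.

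**Figure D3:**
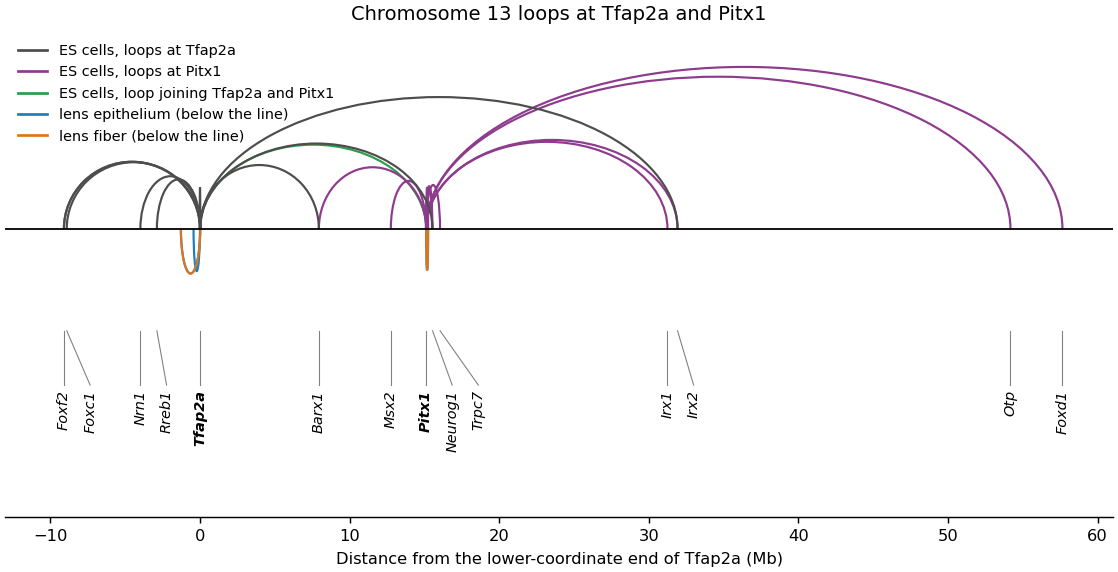
Loops at Tfap2a and Pitx1 along chromosome 13 (horizontal axis, Mb from the lower-coordinate end of Tfap2a), drawn as arcs above the line for ES cells and below it for lens epithelium and fiber cells, with the protein-coding genes at the far anchors named. Arc height rises with loop size and carries no other value. ES cell arcs reach up to 42.5 Mb, and no lens arc passes 1300.0 kb.

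In the lens Tfap2a had another set of loops. A loop of 1290 kb in epithelium and 1300 kb in fiber cells ran to the same place, beginning at 39440001 in epithelium and 39425001 in fiber cells, and the nearest protein-coding gene, the transporter gene Slc35b3, was 479 and 464 kb from it. It had 26 contacts against 8.47 in epithelium (ratio 3.07, interval 2.01 to 4.5) and 128 against 42.8 in fiber cells (2.99, 2.49 to 3.55), the latter with 25 kb anchors. The largest of the 4 FDR values in epithelium was 0.013, and the loop is lost there when all must be below 0.01. CTCF peaks of both lens cell types lay at the far anchor and none at the Tfap2a end. ES cells listed no loop between these sites. Epithelium also listed a 425 kb loop to Ofcc1 with 118 contacts against 47.3 (2.5, 2.07 to 2.99), which had no CTCF peak at either end.

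Tfap2b lies on chromosome 1 from 19208908 to 19238845, and its ES cell and lens loops left from different ends of the gene. All 4 ES loops over 3 Mb started in the 25 kb anchor from 19225001 to 19250000, which covers the upper end. Among their far ends were Pou3f3, a POU factor of brain and kidney, over 23.5 Mb (27 contacts against 2.60), the kinase gene Map4k4 over 20.7 Mb (17 against 0.847) and Sox17, an endoderm factor, over 14.8 Mb (21 against 3.30). All 6 lens loops, 3 in each cell type, started in anchors of 10 or 25 kb beginning at 19200001, which cover the lower end. Only a pair of short ES loops used that end, 1 of 105 kb to its relative Tfap2d (48 contacts against 7.61, ratio 6.31, interval 4.65 to 8.36) and 1 of 35 kb with both anchors in the Tfap2b window (58 against 15.2).

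The lens loops of Tfap2b ran toward Pkhd1, the fibrocystin gene of kidney and bile duct. Loops of 1.1 Mb into Pkhd1 were listed with the same anchors in both lens cell types, with 23 contacts against 6.65 in epithelium (ratio 3.46, interval 2.19 to 5.19) and 33 against 8.6 in fiber cells (3.84, 2.64 to 5.39). A loop of 760 kb in epithelium and 770 kb in fiber cells ended 87.8 and 77.8 kb from Pkhd1, with 37 against 10.0 (3.69, 2.60 to 5.09) and 40 against 9.27 (4.31, 3.08 to 5.87). For both pairs the intervals of the 2 cell types overlapped. The epithelial 1.1 Mb loop had an FDR of 0.092 by the least favourable of the 4 expected counts, so that it is lost when all 4 must be below 0.01. Epithelium had a further loop of 550 kb, and fiber cells 1 of 1.25 Mb into Pkhd1 (127 contacts against 47.7).

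The Tfap2b lower end also held the strongest CTCF peaks of the 7 genes. Summits lay at 19205725 in epithelium, at a fold enrichment of 10.8 over background, and at 19205743 in fiber cells, at 11.8, both below the gene. Of all peaks, 98.0% in epithelium and 95.6% in fiber cells had a lower enrichment. Fiber cells had another peak nearby at 6.56. These peaks were inside the near anchor of 6 of 6 lens loops, and no CTCF peak of either list was found at any of the 6 far anchors.

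Otx1, on chromosome 11 from 21994764 to 22001651, had 5 ES cell loops. Of these, 3 reached the homeobox gene Meis1 over 2.99 Mb (29 contacts against 1.37, ratio 21.1, interval 14.1 to 30.3), the zinc finger gene Bcl11a over 2.07 Mb (26 against 1.54, 16.9, 11.0 to 24.7) and Ebf1, a B-cell and neuronal factor, over 22.6 Mb (21 against 2.11, 9.94, 6.15 to 15.2). A 3.13 Mb loop ended 5.43 kb from Meis1 and had the highest ratio of all, 32.3 (interval 18.1 to 53.3), on 15 contacts against 0.465. A 600 kb loop had 75 against 36.7. The lens lists held other, shorter loops: 325 kb to Wdpcp, a cilium gene, and 175 kb into Ehbp1 in epithelium, and 70 kb into Ehbp1 in fiber cells. Their ratios were 1.87, 2.19 and 2.73. Ehbp1, an endocytosis gene, lies next to Otx1 and also overlapped the near anchor of 3 of 5 ES loops, 1 of 2 epithelial loops and the fiber loop, so that anchors of this width do not say which of the genes was in contact.

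Otx2, on chromosome 14 from 48656781 to 48667644, had a 21.4 Mb ES loop to Egr3, an immediate early gene, on 13 contacts against 1.14 (ratio 11.4, interval 6.09 to 19.6), the fewest contacts of the set. Its other ES loop ran 550 kb to Peli2, a ubiquitin ligase gene, with 57 against 21.3 (2.68, 2.03 to 3.47) and a largest FDR value of 0.014. Both used 25 kb anchors that hold the whole gene.

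Pitx3, on chromosome 19 from 46135281 to 46148325, had, like Pitx1, a loop in all 3 lists. It left the lower end of the gene, which is the 3′ end because Pitx3 is read from the minus strand, and ended 115 kb away in ES cells and fiber cells and 120 kb away in epithelium, inside Gbf1, a gene of Golgi traffic. Observed contacts were 59 against 19.3 in ES cells (ratio 3.05, interval 2.32 to 3.93), 32 against 9.40 in epithelium (3.40, 2.33 to 4.81) and 41 against 11.1 in fiber cells (3.71, 2.66 to 5.03). The intervals overlapped throughout. Fiber cells listed another loop, of 170 kb, to Nfkb2, an NF-kappa-B subunit gene, with 80 against 31.9 (2.51, 1.99 to 3.12). Each near anchor also overlapped the neighbouring gene Elovl3.

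Tfap2c, on chromosome 2 from 172545678 to 172558622, had a loop of 200 kb in ES and fiber cells with the same anchors and 1 of 220 kb in epithelium. The far ends lay between genes, and the nearest was Bmp7, a signal of eye and kidney development, 108 kb away in ES and fiber cells and 88.0 kb away in epithelium. The ratios were 2.82 (interval 2.20 to 3.56), 2.72 (2.00 to 3.6) and 2.78 (1.99 to 3.77), with intervals that overlapped. The epithelial far anchor lay farther out, so that at a tolerance of 10 kb the loop did not count as shared. ES cells had another loop of 60 kb (38 contacts against 14.4, largest FDR value 0.044) that ended in the window but outside the gene body.

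**Figure D4:**
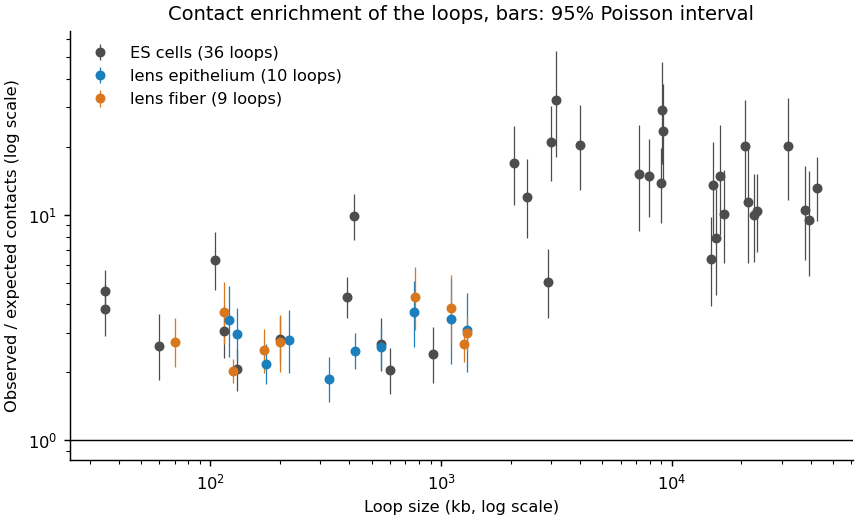
Observed over expected contacts (vertical axis, log scale) against loop size (horizontal axis, kb, log scale) for the 36 ES, 10 epithelial and 9 fiber loops at the genes, each point 1 loop and each bar a 95% Poisson interval of the observed count. The ES loops over 3 Mb have ratios from 6.37 to 32.3 with wide bars, and the lens loops lie between 1.87 and 4.31. Long loops have low expected counts, at which only a high ratio can be listed.

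Among the listed loops, the ratio of observed to expected contacts was highest for the long ES cell loops. A loop is listed only if it passes the FDR limits, and the long ES loops had expected counts of 0.465 to 3.30. At such counts only a high ratio can pass, so their ratios are not on the same footing as those of shorter loops. The 20 ES loops over 3 Mb had a median ratio of 13.6 on a median of 18.0 contacts, and the 315 such loops of the whole ES list had 11.3 on 19. The 16 shorter ES loops at the genes had a median ratio of 4.07, against 3.0 in the list. Medians in the lens were 2.87 in epithelium and 2.73 in fiber cells, against 3.05 and 2.83 over all loops. Anchors of 25 kb, the widest, were used by 15 of the 20 long loops, and the far anchor overlapped a protein-coding gene in 19 of 20, where 88.9% of the anchors of all long ES loops did.

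Few of the ES loops were found in the lens. With both midpoints within 10 kb, 3 of 36 ES loops were shared with a lens list, where 43.0% of all ES loops were. They were the Pitx1 130 kb, Pitx3 115 kb and Tfap2c 200 kb loops, all among the 16 ES loops of up to 3 Mb. Loops over 3 Mb made up 55.6% of the 36 and 3.72% of the list, so 43.0% is not a like-for-like share. Of the 20 loops over 3 Mb, 0 had a lens counterpart within 10, 25 or 50 kb, and of the 315 such loops of the whole ES list 6.67% had one within 10 kb and 6.98% within 25 or 50 kb. A count of 0 among 20 is thus close to the list. Of the lens loops, 5 of 10 in epithelium and 6 of 9 in fiber cells were shared with another list. Among them, the fiber Tfap2c 200 kb loop was shared with ES cells alone, and the other loops were shared between the lens lists. Between the lens lists as wholes, 55.5% of epithelial and 57.8% of fiber loops were shared, a share that leaves out ES cells.

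CTCF peaks were listed at 4 of 7 genes in epithelium (Pitx1, Pitx3, Tfap2b and Tfap2c, with 1 peak each) and at 3 of 7 in fiber cells (Pitx3, Tfap2b and Tfap2c, with 2 each). Of all genes, 30.9% in epithelium and 45.3% in fiber cells had a peak. The Pitx1 peak, with its summit at 55824398 just below the gene, was weak, with an enrichment of 4.73 that 17.9% of the list fell under. Pitx3 had a peak at its 3′ end in both cell types, at 4.03 in epithelium and 6.44 in fiber cells, and a fiber peak 2092 bp inside the gene at 5.29. Tfap2c had a peak in the gene, 4906 bp from its lower end in epithelium (6.18) and 4931 bp in fiber cells (7.71), and a fiber peak at 4.47. Median enrichment was 5.78 in the epithelial list and 6.44 in the fiber list. With 1 peak list per cell type these differences have no error. Otx1, Otx2 and Tfap2a had none, and the nearest peaks were 224 kb away in both cell types at Otx1, 143 and 132 kb at Otx2, and 105 and 46.3 kb at Tfap2a.

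Both anchors held a peak called in the cell type of the loop for 1 of 10 epithelial loops and 4 of 9 fiber loops, shares near those of the whole lists, 15.7% and 39.1%. The epithelial loop was that of Tfap2c, and the fiber loops were those of Tfap2c, Pitx1 and both of Pitx3. The Pitx1 fiber loop met this through its 25 kb anchors.

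TADs touched 3 of 7 genes in ES cells, 2 of 7 in epithelium and 2 of 7 in fiber cells, where 42.9%, 22.5% and 31.3% of all genes were touched. At Pitx3 an ES TAD of 210 kb held the whole window, and in epithelium and fiber cells a TAD of 120 kb began at 46135001, just below the gene, and ended at 46255000, beside the far anchor of the Pitx3 loop. Otx2 lay inside a TAD of 630 kb in ES cells and 485 kb in epithelium and in none in fiber cells, where the nearest was 157 kb away. Tfap2c lay in a TAD of 340 kb in ES cells only, and the Pitx1 body was crossed by the border of a 135 kb TAD in fiber cells only. Otx1, Tfap2a and Tfap2b were touched by no TAD in any list. In ES cells 3 of the 36 loops joined anchors of the same TAD, and 19 had neither anchor in a TAD. The matching shares over all ES loops were not computed, so these counts do not set the genes apart from the list.

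**Figure D5:**
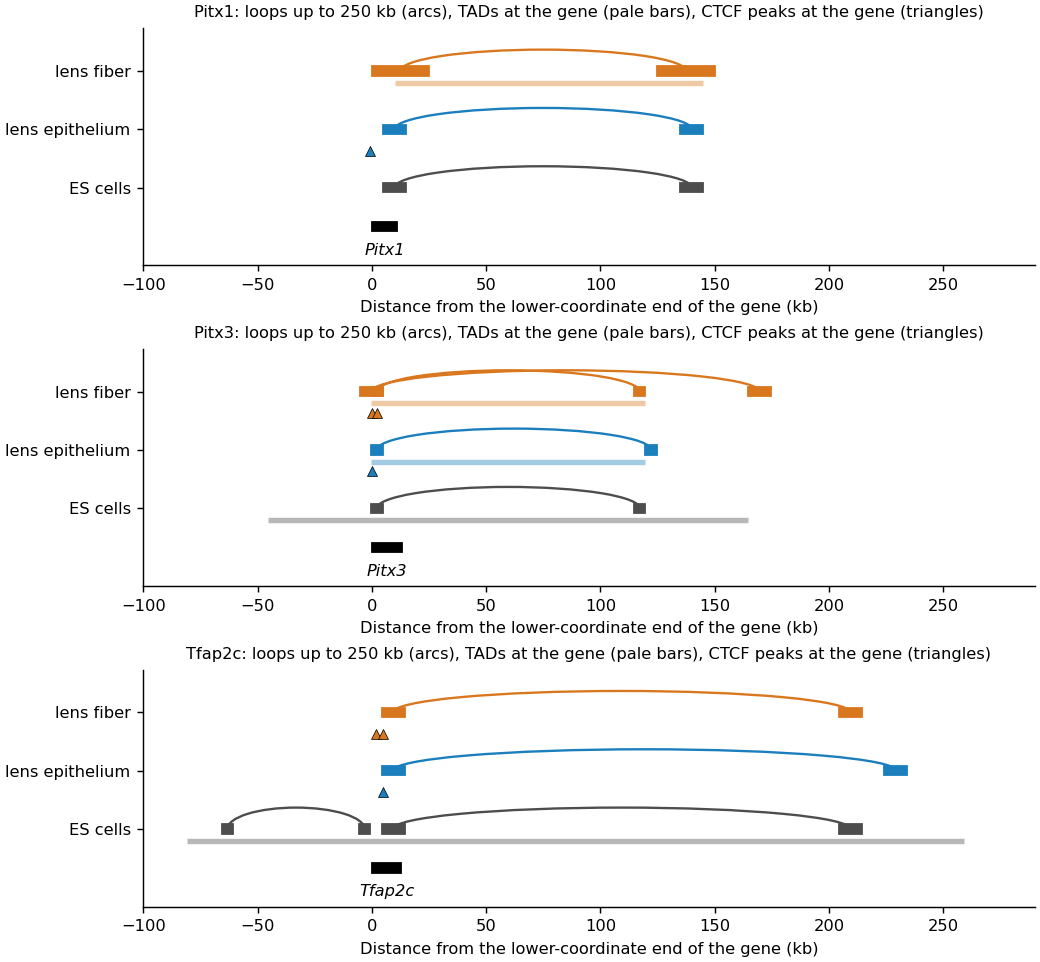
Loops up to 250 kb (arcs between filled anchors), TADs touching the gene (pale bars) and CTCF summits in the gene window (triangles) around Pitx1, Pitx3 and Tfap2c, against distance in kb from the lower-coordinate end of the gene, in a row per cell type. Loops of 115 to 130 kb recur in all rows at Pitx1 and Pitx3, the lens TADs of Pitx3 start at the near anchor of its loop, and CTCF was not mapped in ES cells.

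Promoter sequence was at hand for 4 of the genes in RefSeq (GRCm38.p6), as the 250 bases before each annotated start. They are shown for the member with strong CTCF peaks in its lens anchors, for the member whose promoter lies in most ES anchors, and for the member whose loop of 115 or 120 kb is in every list but leaves from its other end. The search was for 4 words of the CTCF core, namely AGAGGGC, its close variant AGATGGC, the word AGGGGGC, and the word AGGTGGC, on both strands, in capitals below, which 23.6% of 32851 promoters hold in these bases.
Tfap2b, chr1:19211804-19212053, plus strand: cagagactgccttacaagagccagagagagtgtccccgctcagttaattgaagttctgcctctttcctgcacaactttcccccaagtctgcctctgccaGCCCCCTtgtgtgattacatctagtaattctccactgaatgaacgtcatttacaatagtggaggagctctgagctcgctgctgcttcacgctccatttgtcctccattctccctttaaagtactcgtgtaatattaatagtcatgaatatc
Tfap2a, chr13:40734921-40735170, minus strand: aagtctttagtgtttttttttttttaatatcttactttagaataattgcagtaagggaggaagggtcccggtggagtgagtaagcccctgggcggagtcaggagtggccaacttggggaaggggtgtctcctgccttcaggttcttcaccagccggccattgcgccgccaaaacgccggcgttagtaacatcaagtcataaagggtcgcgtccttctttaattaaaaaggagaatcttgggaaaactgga
Pitx3, chr19:46148326-46148575, minus strand: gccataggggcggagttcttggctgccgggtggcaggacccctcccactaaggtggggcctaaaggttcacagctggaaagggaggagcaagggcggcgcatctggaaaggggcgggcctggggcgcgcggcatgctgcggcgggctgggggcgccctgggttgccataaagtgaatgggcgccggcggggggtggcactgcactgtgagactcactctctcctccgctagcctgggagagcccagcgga

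Of the 8 promoter windows of the 4 genes, the Tfap2b window held 1 word, AGGGGGC on the minus strand, starting 151 bases before the start. No CTCF peak of either list overlapped that window, since the peaks at Tfap2b lay between 19205591 and 19206524. The other windows, of Tfap2a, Pitx3 and Otx2, held none of these letters. The printed Tfap2a promoter lay in the near anchor of 6 of 10 ES loops, 1 of 2 epithelial loops and the fiber loop. The printed Tfap2b promoter belongs to a start inside the annotated gene body and lay in 0 of 6 near anchors in ES cells and in 1 of 3 in each lens list. The lower end of the gene itself was covered by 2 of 6 near anchors in ES cells and by 3 of 3 in each lens list. No near anchor of a Pitx3 loop held its promoter in any list. The bases differed in composition, with 68.8% G and C at Pitx3, 47.6% at Tfap2a and 46.4% at Tfap2b, where the median promoter has 52.4%.

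Among 5 relatives of these genes (Crx, Gsc, Dmbx1, Tfap2d and Tfap2e), 4 had a loop in ES cells, 3 in epithelium and 2 in fiber cells, and 1 had a loop over 3 Mb in ES cells. It was Dmbx1, a homeobox gene of the midbrain, with 6 ES loops and 0 in either lens list. Crx, the photoreceptor homeobox gene, had no loop in any list. Of 17 eye and lens regulators outside these families, 15 had a loop in each list, and 7 had a loop over 3 Mb in ES cells (among them Pax6, Lhx2, Foxe3 and Prox1) and 0 in the lens. Lhx2, an eye-field homeobox gene, had 10 ES loops, as many as Tfap2a, with 8 over 3 Mb. Maf, a regulator of crystallin genes, had the opposite order of counts, with 0 loops in ES cells, 6 in epithelium and 4 in fiber cells. These lists were chosen by name and their counts carry no test.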

How the data were processed

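Per the submitters' processing notes, reads were placed on mm10 with BWA, Hi-C maps were made with Juicer and CTCF peaks were called with MACS2. By the methods of the study, reads of low mapping quality were removed, replicates were merged, and loops and TADs were called by HiCCUPS and Arrowhead at default settings. The deposited loop lists, written by Juicer Tools 2.13.06, give positions, the observed count of contacts, 4 expected counts and their FDR, a q-value. The deposited peak lists give a score, a ratio (fold enrichment over background), and −log10 of p and q. The score was not used. Depth, as total contacts or reads per list, was not analysed here, and intervals rest on the observed counts and cover counting error only. The labels give 1 ChIP-seq sample per cell type, whereas the methods of the study describe replicates and a larger amount of chromatin. Whether each peak list pools replicates is not given in the sources used here.

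From these lists, overlaps of at least 1 bp were counted with Python 3.11.15, numpy 2.4.6 and pandas 2.3.3 against GRCm38.p6 gene bodies widened by 5 kb, since mm10 and GRCm38 share coordinates. Loop size is the distance between anchor midpoints, and shared loops have both midpoints within 10 kb. Exact Poisson intervals (SciPy 1.17.1) divide the observed count by the donut expected count, taken as fixed. Wilson intervals came from statsmodels 0.14.6 and figures from matplotlib 3.10.9. Interval code was tested on simulated data. Positions are counted from 1.

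The genes and gene lists were chosen with earlier results of these data known. Named partners are protein-coding genes at the far anchor of a loop, or else the nearest. The limit of 3 Mb, the links among partner genes and the ends of Tfap2b were looked at after the values were seen. Compartments were not analysed here. Some withheld items are not reported here.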

Additional observations from a re-analysis of the deposited data

How the results depend on the processing

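Of 103 values recomputed under an alternative, 86 stayed within 1.5 times the value reported, and the others were counts that depended on how a feature was counted. Some of the 86 could not have moved. The lens lists had 0 loops over 3 Mb at these genes, so stricter settings could only return 0. Leaving out loops over 3 Mb could likewise not change the lens counts. Without loops over 3 Mb the ES cell loops at the genes numbered 16 in place of 36. With anchors of 5 and 10 kb only, a choice made after seeing the data, there were 17 loops in ES cells and 6 in lens epithelium, and 5 ES loops over 3 Mb in place of 20, which is 29.4% of those 17 where 0.938% of all such ES loops passed 3 Mb. In epithelium, asking that a TAD hold the whole window left 1 TAD and 1 gene, as did a minimum TAD size of 200 kb, and in fiber cells both left 0 TADs and 0 genes. Without widening, epithelium had 2 CTCF peaks in 2 genes. Shared epithelial loops numbered 8 within 25 kb and 3 by overlap of both anchors, and 2 epithelial loops had CTCF at both anchors once these were widened by 5 kb.

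The loops over 3 Mb rest on few contacts, between 13 and 39 each. They numbered 24 with a limit of 2 Mb, 18 with 5 Mb and 19 with all 4 FDR values below 0.01. Both lens lists also had 0 with a limit of 2 Mb, the only one of these settings that could have raised their number. Against the largest of the 4 expected counts, the median ratio was 7.19 in ES cells, 2.23 in epithelium and 2.27 in fiber cells. No paired analysis was possible because the replicates of each cell type were merged into 1 list, and for the same reason no replicate could be left out.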
